A study of Mus musculus with 18 samples.

Results

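RAB vesicle traffic GTPases were followed from granulocyte-macrophage progenitors (GMPs) through pre-neutrophils (preNeu) to mature neutrophils (matNeu) of mouse bone marrow. The members were the genes listed as protein coding in the deposited expression table whose symbol is Rab, a number and at most 2 letters, with the Rab11fip effectors left out. This gave 55 of 34896 genes: 54 RAB GTPases and Rab3ip, an exchange factor for the Rab8 proteins that the symbol rule also took in. Of these, 42 members reached a TPM of 1 (a transcript level corrected for length and scaled to a fixed total in each library) in at least 3 of 9 libraries and were tested, 41 of them GTPases.

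The study asked how the repressor GFI1 and the chromatin remodeler CHD4, the helicase of the NuRD complex, act on chromatin in myeloid progenitors, and how that chromatin changes as neutrophils mature. All mice were adult C57BL/6 animals of 6 to 12 weeks. RNA-seq was made from 3 libraries each of GMP, preNeu and matNeu sorted from wild-type (WT) marrow. CHD4 ChIP-seq was made from GMPs of WT mice and of mice without Gfi1 (Gfi1-/-), and ChIP-seq of histone H3 dimethylated at lysine 4 (H3K4me2, a mark of active and poised promoters and enhancers) from WT GMP, preNeu and matNeu, with 1 library in each of these ChIP groups. The labels do not say whether replicates came from separate animals, so p-values measure the spread between these libraries.

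For 13 of 18 samples, among them all 9 RNA-seq libraries, the cell type in the sample title differed from the cell type given in its characteristics. Groups were taken from the titles. The markers bore the titles out: summed TPM of 5 GMP genes (Mpo, Elane, Prtn3, Kit and Cd34) was at least 42380 in the GMP libraries and at most 29.9 in matNeu, and the secondary granule genes Ltf, Ngp, Camp and Lcn2 peaked in preNeu. Every library sums to 1000000 TPM, so sequencing depth is unknown. The 10 most abundant genes held between 9.15% and 9.78% of all TPM in GMP, 24.1% to 28.3% in preNeu and 12.7% to 15.9% in matNeu. The median log2 change of all 13061 genes tested was -0.52 for preNeu against GMP, -0.32 for matNeu against preNeu and -0.92 for matNeu against GMP, and changes below are read beside these medians.

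RAB proteins are small GTPases that mark the membranes of the cell and direct vesicle budding, movement, tethering and fusion. Exchange factors load them with GTP, GTPase activating proteins switch them off, and a lipid tail added by the RAB geranylgeranyl transferase anchors them until a GDP dissociation inhibitor lifts them off the membrane again. In neutrophils they are known above all for the release of stored granules, in which Rab27a takes part, and for the maturation of phagosomes, along which Rab5 proteins give way to Rab7.

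The RAB family took a growing share of the transcriptome. The summed TPM of the 55 members was 3294 to 3441 in GMP, 3621 to 3998 in preNeu and 4935 to 5412 in matNeu, and the 3 ranges did not overlap. In matNeu against GMP, 17 of 42 tested members rose (40.5%, where 22.8% of all genes tested were called higher) and 14 fell (33.3%, where 54.1% of all genes were called lower), by limma at an adjusted p under 0.05. The median log2 change of the members was -0.001, or 0.08 without the 2 members listed at 0 throughout a cell type, and 32 of 42 members lay above the median of all genes. All 17 rises were also called under both other scalings tried, whereas 6 of the 14 falls were (Rab4a, Rab7b, Rab9, Rab17, Rab18 and Rab38). Both scalings move genes as a whole up in matNeu against GMP. The median of all genes went from -0.92 to -0.25 with median ratio scaling and 0.03 with quantile normalization. They thus favour rises and disfavour falls, so these counts do not show the rises to be sturdier. For preNeu against GMP, 12 members rose (28.6%, background 14.7%) and 13 fell (31.0%, background 44.3%), with a median of 0.17. From preNeu to matNeu, 15 members rose (35.7%, background 22.9%) and 10 fell (23.8%, background 39.8%), with a median of 0.08. In bulk samples fewer cells of a type and less RNA per cell cannot be told apart.

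**Figure D1:**
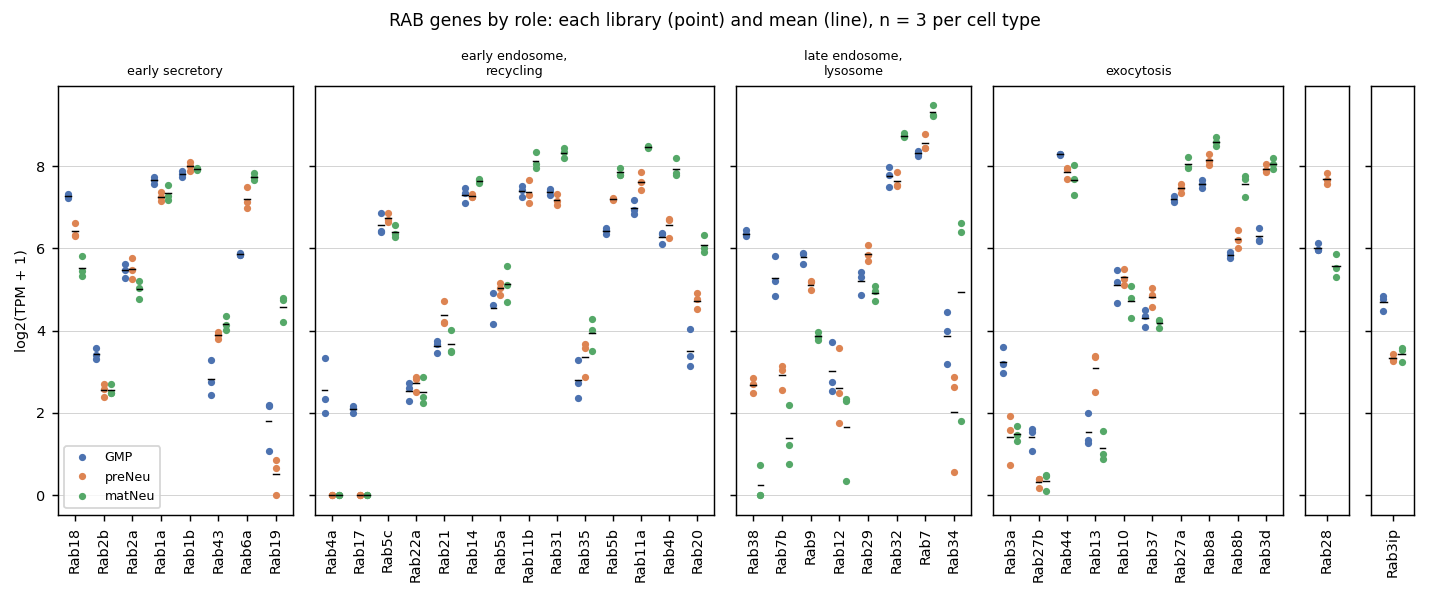
Levels of the 42 tested members as log2(TPM + 1), grouped by role (the 2 narrow panels hold Rab28 and Rab3ip), with a point for each library and a line for the mean of 3 libraries of GMP, preNeu or matNeu. Rab7 stands highest in matNeu, while Rab38 and Rab7b fall stepwise and Rab4a and Rab17 lie at 0 after the GMP stage.

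By course, 5 members rose at both steps (Rab5b, Rab6a, Rab8a, Rab11a and Rab20) and 4 fell at both (Rab7b, Rab9, Rab18 and Rab38). A further 5 rose into preNeu and fell again in matNeu (Rab13, Rab21, Rab28, Rab29 and Rab37), and Rab19 alone fell into preNeu and then rose. Another 9 were called only as rising from preNeu to matNeu, 8 only as falling from GMP to preNeu, 2 only as rising into preNeu (Rab3d and Rab43), and Rab2a only as falling into matNeu. The remaining 7, Rab1b, Rab5a, Rab5c, Rab10, Rab12, Rab22a and Rab35, passed the test at neither step. The mean was highest in GMP for 13 members, in preNeu for 10 and in matNeu for 19. Courses and stages of highest mean were not counted over all genes. These counts therefore describe the members and do not set them apart from other genes.

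Several of these courses depended on the scaling. The second rises of Rab6a (0.54, adjusted p = 0.0507 with quantile normalization) and Rab8a (0.45, adjusted p = 0.98) and the second fall of Rab7b (-1.52, adjusted p = 0.0967) were lost with quantile normalization, and the first fall of Rab9 (-0.67) with median ratio scaling (adjusted p = 0.192) and quantile normalization (adjusted p = 0.363). In all, 12 of 12 rises and 7 of 13 falls into preNeu were called under both other scalings, and 11 of 15 rises and 6 of 10 falls into matNeu. Both scalings also move the median of all genes up at each step. With median ratio scaling and quantile normalization it was -0.16 and -0.01 for preNeu against GMP. For matNeu against preNeu it was -0.04 and 0.03. Rises and falls therefore did not face the same hurdle. The falls into preNeu that were lost were those of Rab1a, Rab2b, Rab9, Rab19, Rab27b and Rab44. At the step into matNeu the rises of Rab6a, Rab7, Rab8a and Rab14 were lost, and the falls of Rab2a, Rab7b, Rab21 and Rab37.

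Some of the smaller steps also rested on single libraries. The rise of Rab37 into preNeu (0.50, adjusted p = 0.0434) was lost without any of 5 libraries, at most with adjusted p = 0.146 without GMP replicate 3, and its fall into matNeu (-0.63) without preNeu replicate 3 (adjusted p = 0.0541). Rab21 lost its rise (0.75) without GMP replicate 3 or preNeu replicate 3 (adjusted p of 0.0598 and 0.0675), and its fall (-0.71) without preNeu replicate 3 or matNeu replicates 1 or 2 (0.0647 to 0.0815). Rab29 lost its rise only without preNeu replicate 2 (adjusted p = 0.0537). The fall of Rab44 into preNeu (-0.43, adjusted p = 0.0464) was lost in 7 of the 9 fits without a library (0.0588 to 0.149), and that of Rab1a (-0.40) without GMP replicates 1 or 2 or preNeu replicate 1 (0.0506 to 0.0663). Rab2a, called only at the step into matNeu (-0.49, adjusted p = 0.0365), was not called without preNeu replicates 1 or 2 or matNeu replicates 1 or 2 (0.0647 to 0.135), and Rab14 at that step without preNeu replicate 2 (0.0525). The other members kept their calls at both steps in each of these fits, Rab34 excepted.

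The early endosome and recycling RABs showed the most rises. Of 14 tested, 8 rose in matNeu against GMP (57.1%, background 22.8%) and 2 fell (14.3%, background 54.1%), with a median log2 change of 0.64, and their share of all member TPM went from 28.1% ± 1.54 (SD, n = 3) in GMP to 29.1% ± 1.84 in preNeu and 35.6% ± 0.586 in matNeu. Rab20, which associates with maturing phagosomes, read 15.4, 7.76 and 9.40 TPM in the GMP libraries, 29, 21.9 and 26.2 in preNeu and 59.2, 63.4 and 79.5 in matNeu. The 3 cell types did not overlap, and matNeu stood 2.57 ± 0.24 (SE) above GMP on the log2(TPM + 1) scale (limma adjusted p = 2.38e-06). Rab5b, one of the RABs of early endosome fusion, read 85.5, 89.2 and 80.8 TPM in GMP, 146, 145 and 149 in preNeu and 221, 221 and 247 in matNeu. Its libraries were tight within each cell type and rose at both steps, by 1.42 ± 0.11 in all (adjusted p = 3.62e-07). Its paralog Rab5c, with 85.4, 84.0 and 115 TPM in GMP, 103, 98.8 and 115 in preNeu and 76.9, 93.3 and 80.2 in matNeu, was not called at any step.

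Rab4b, of the fast recycling route, read 81.8, 68.0 and 81.0 TPM in GMP, 104, 102 and 75.9 in preNeu and 227, 295 and 218 in matNeu. GMP and preNeu overlapped and all matNeu libraries were higher (1.66 ± 0.17 against GMP, adjusted p = 4.25e-06). Rab4a read 4.07, 9.13 and 2.98 TPM in GMP and is listed at 0 in all 6 later libraries. Rab4a lies wholly inside a read-through gene on the same strand, Gm20388, whose mean was 19.1 TPM in GMP, 25.4 in preNeu and 2.02 in matNeu, so reads of the pair could be split either way and the listed zeros are uncertain. Rab17, known from epithelial sorting, read 3.37, 2.99 and 3.51 TPM in GMP and is likewise listed at 0 in all later libraries. Rab31, which acts between the Golgi and endosomes, read 175, 166 and 157 TPM in GMP, 132, 141 and 159 in preNeu and 293, 323 and 344 in matNeu, with all matNeu libraries above the rest (0.94 ± 0.12 against GMP, adjusted p = 2.04e-05). Its paralog Rab22a stayed between 3.75 and 6.32 TPM over all 9 libraries and was not called. Of the rest, Rab11a, the main recycling endosome RAB, rose at both steps (1.48 ± 0.13 in all, adjusted p = 1.84e-06), and Rab11b, Rab14 and Rab35 were called higher in matNeu than in GMP. Reads of Rab11b are uncertain because a processed copy, Rab11b-ps2, is listed at 52.0 to 115 TPM. The call of Rab14 (0.33 ± 0.12, adjusted p = 0.0223) was lost without GMP replicate 2 (0.24, adjusted p = 0.0913) or matNeu replicate 1 (0.32, adjusted p = 0.0582).

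The early secretory RABs split. Of 8 tested, 3 rose (37.5%, background 22.8%) and 4 fell (50.0%, background 54.1%) in matNeu against GMP. Their share of member TPM was 20.9% ± 0.673 in GMP and 14.3% ± 0.245 in matNeu, while their summed TPM stayed at 697 ± 14.2 in GMP, 705 ± 38.6 in preNeu and 740 ± 46.7 in matNeu and that of the 3 other large role groups was higher in matNeu than in GMP. Rab6a, of retrograde transport to and through the Golgi, read 58.5, 55.9 and 56.3 TPM in GMP, 138, 126 and 178 in preNeu and 203, 212 and 225 in matNeu. It was called higher at both steps, with no overlap between cell types (1.89 ± 0.14 in all, adjusted p = 3.14e-07), but its second rise was not called with quantile normalization. Rab19 was near the detection floor before matNeu, at 3.59, 1.1 and 3.49 TPM in GMP and 0.795, 0 and 0.590 in preNeu, and read 17.4, 26.6 and 25.9 in matNeu. Its rise from preNeu to matNeu was the steepest of any member, 4.08 ± 0.37 (adjusted p = 3.48e-06), while its fall into preNeu (-1.31, adjusted p = 0.0114) was not called under both other scalings.

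Rab1b, of transport from the endoplasmic reticulum to the Golgi, was not called at any step, with 212, 237 and 222 TPM in GMP, 236, 273 and 257 in preNeu and 242, 239 and 245 in matNeu. PreNeu overlapped both other cell types, while matNeu lay just above GMP without overlap. Rab1b was among the 10 most abundant members at every stage. Rab18, of lipid droplets and the endoplasmic reticulum, fell stepwise from 158, 148 and 153 TPM in GMP to 78.2, 79.7 and 96.4 in preNeu and 39, 55.6 and 42.4 in matNeu (-1.74 ± 0.15, adjusted p = 1.47e-06). Rab1a (-0.32), Rab2a (-0.46) and Rab2b (-0.88) were also called lower in matNeu than in GMP, all 3 above the median of all genes, and none of these calls was kept under both other scalings: Rab1a turned positive with median ratio scaling, Rab2b with quantile normalization and Rab2a with either. Without single libraries Rab1a lost its call in 5 fits (adjusted p up to 0.138) and Rab2a in 5 (up to 0.141). Rab43 rose by 1.35 ± 0.25 (adjusted p = 0.000457).

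The late endosome and lysosome RABs held both the highest member and the deepest falls. Of 8 tested, 2 rose (25.0%, background 22.8%) and 3 fell (37.5%, background 54.1%) in matNeu against GMP, and their median of -0.82 was near that of all genes (-0.92). Rab7, which drives fusion of late endosomes and phagosomes with lysosomes, had the highest mean of any RAB at every stage, with 331, 316 and 305 TPM in GMP, 349, 348 and 439 in preNeu and 603, 599 and 714 in matNeu. In GMP its lead was within the spread, since Rab44 overlapped it (306, 312 and 314 TPM). All matNeu libraries were above the others, by 1.00 ± 0.12 against GMP (adjusted p = 1.98e-05). Rab7b, which acts between late endosomes and the Golgi, went the other way, from 55.1, 27.9 and 35.9 TPM in GMP to 7.26, 4.84 and 7.87 in preNeu and 0.696, 1.33 and 3.60 in matNeu. The 3 cell types did not overlap (-3.90 ± 0.39 in all, adjusted p = 3.78e-06).

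Rab32 and Rab38 serve lysosome-related organelles such as melanosomes. Rab32 read 253, 219 and 180 TPM in GMP, 184, 181 and 229 in preNeu and 421, 414 and 444 in matNeu, with GMP and preNeu overlapping and matNeu above both (0.98 ± 0.14 against GMP, adjusted p = 8.56e-05). Rab38 read 80.1, 86.1 and 77.3 TPM in GMP, 6.15, 4.56 and 5.5 in preNeu and 0, 0 and 0.658 in matNeu. It had the largest change of any member, -6.12 ± 0.26 (adjusted p = 5.05e-09), and most of the fall (-3.69 ± 0.26) was complete in preNeu. Rab9, of transport from late endosomes to the Golgi, fell from 48.3, 57.1 and 57.9 TPM to 35.0, 30.5 and 35.9 and then 12.6, 13.4 and 14.6 (-1.93 ± 0.16 in all, adjusted p = 6.90e-07). Its fall into preNeu was called under neither other scaling, and its fall into matNeu under both.

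Rab34, linked to lysosome positioning, was the least reproducible member. It read 20.8, 15.0 and 8.13 TPM in GMP, 5.18, 6.29 and 0.478 in preNeu and 97.8, 82.8 and 2.49 in matNeu. The third library was the lowest of each cell type, and in matNeu it lay within the range of preNeu. The change from preNeu to matNeu was 2.92 ± 1.11 (adjusted p = 0.0403), and the call was lost when any of 6 libraries was left out, with adjusted p up to 0.152 (without preNeu replicate 3) and changes down to 2.08 (without matNeu replicate 1). Against GMP the change was 1.06 (adjusted p = 0.401), and 2.63 (adjusted p = 0.00384) without matNeu replicate 3.

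Among the 10 tested RABs of exocytosis and polarized secretion, 4 rose (40%, background 22.8%) and 3 fell (30.0%, background 54.1%) in matNeu against GMP, and their share of member TPM was 25.3% ± 1.01 in GMP, 28.6% ± 0.596 in preNeu and 26.3% ± 0.112 in matNeu. Rab3d, found on secretory granules, rose early, from 72.7, 89.0 and 71.8 TPM in GMP to 238, 229 and 266 in preNeu and 266, 291 and 245 in matNeu. The last 2 cell types overlapped, and both stood apart from GMP (1.64 ± 0.13 for preNeu, adjusted p = 2.67e-06). Rab3a, known from synaptic vesicles, fell at the same step, from 8.06, 6.79 and 11 TPM to 0.663, 2.80 and 1.99 (-1.83 ± 0.34, adjusted p = 0.00087), and read 1.76, 1.48 and 2.22 in matNeu. That fall into preNeu was kept under both other scalings, while the call for matNeu against GMP was not.

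Rab27a, needed for granule release, read 139, 153 and 144 TPM in GMP, 161, 189 and 176 in preNeu and 251, 247 and 296 in matNeu (0.85 ± 0.12 against GMP, adjusted p = 4.93e-05). The 3 cell types did not overlap, although Rab27a was not called at the step into preNeu (0.27, adjusted p = 0.0741). Its paralog Rab27b was scarce, with 1.1, 1.9 and 2.03 TPM in GMP, 0.321, 0.3 and 0.128 in preNeu and 0.408, 0.0717 and 0.368 in matNeu. Rab8a, of transport to the plasma membrane, read 203, 187 and 175 TPM in GMP, 277, 259 and 313 in preNeu and 384, 415 and 362 in matNeu, again without overlap (1.03 ± 0.11, adjusted p = 8.98e-06). Rab8b rose more steeply, by 1.73 ± 0.17 (adjusted p = 3.03e-06), with 55.9, 53.4 and 59.3 TPM in GMP, 63.8, 72.9 and 86.5 in preNeu and 150, 206 and 216 in matNeu.

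Rab44, a large RAB with calcium-binding EF hands, read 306, 312 and 314 TPM in GMP, 206, 244 and 246 in preNeu and 206, 157 and 259 in matNeu. All GMP libraries were above the rest, but its change in matNeu (-0.61 ± 0.17, adjusted p = 0.00596) was smaller than the fall of the median gene and turned to 0.22 with median ratio scaling. Rab13, known from tight junctions, peaked in preNeu at 4.70, 9.21 and 9.40 TPM against 1.53, 2.98 and 1.42 in GMP and 0.827, 1.95 and 1.00 in matNeu. Both its rise (1.55 ± 0.34, adjusted p = 0.00277) and its fall (-1.94 ± 0.34, adjusted p = 0.000521) passed the test.

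Rab28, outside these 4 groups and linked to the cilium, also peaked in preNeu. It read 69.2, 61.2 and 60.9 TPM in GMP, 189, 202 and 227 in preNeu and 38.5, 57.6 and 44.7 in matNeu. All preNeu libraries were far above the others, after a rise of 1.67 ± 0.16 (adjusted p = 1.02e-05) and before a fall of -2.12 ± 0.16 (adjusted p = 7.46e-07). The smaller difference between matNeu and GMP (-0.45, adjusted p = 0.0235) was lost without GMP replicate 1 or matNeu replicates 1 or 3 (0.0549 to 0.0926) and turned positive under both other scalings. Rab3ip, the exchange factor, fell into preNeu by -1.37 ± 0.20 (adjusted p = 0.000179) and then did not change by the test.

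Markers of other cell types moved along with these steps. The summed TPM of all 4 mast cell, basophil and eosinophil genes (Cpa3, Mcpt8, Prg2 and Epx) was 1088 to 1358 in GMP, 93.6 to 151 in preNeu and 1.24 to 6.79 in matNeu, in the direction of Rab38, Rab7b, Rab4a, Rab17 and Rab3a. Of these markers, Epx is listed at 0 in all matNeu libraries, and Mcpt8 overlapped between GMP (86.6 to 116.7 TPM) and preNeu (55.3 to 102.5). The sum of 4 monocyte genes was 339 to 428, 21.3 to 41.8 and 332 to 449 TPM, and its members went different ways. Csf1r read 188 to 232 TPM in GMP and 253 to 350 in matNeu and Adgre1 10.7 to 14.9 and 75.7 to 97.0, whereas Ccr2 went from 110 to 154 down to 0.269 to 0.891 and Cx3cr1 from 23.2 to 27.8 down to 0.0676 to 1.56. The platelet and megakaryocyte genes Pf4, Itga2b and Gp9 summed to 35.4 to 49.6 TPM in GMP, 2.98 to 7.13 in preNeu and 4.42 to 7.93 in matNeu, also in the direction of the falling members. Most of the GMP sum was Itga2b (29.3 to 36.0 TPM). Gp9 did not follow, with overlapping values of 0.771 to 4.73, 1.68 to 2.59 and 1.51 to 3.35 TPM. The B cell genes Cd79a and Ms4a1 went in the direction of the rising members. Cd79a read 0 to 0.603 TPM in GMP, 5.68 to 8.58 in preNeu and 16.2 to 33.1 in matNeu, and Ms4a1 0.421 to 0.523, 2.13 to 2.84 and 8.33 to 16. Of the T cell genes, Cd3d read 2.34 to 3.29, 0.768 to 2.88 and 6.57 to 14.1 TPM, and so was higher only in matNeu. Cd3e stayed at or below 0.101 TPM in every library. The part of all these markers in the RAB results was not tested. The 13 members not tested (Rab3b, Rab3c, Rab6b, Rab9b, Rab15, Rab25, Rab26, Rab30, Rab33a, Rab39, Rab39b, Rab40b and Rab42) reached at most 3.13 TPM in any library, and 9 of them stayed under 1 TPM throughout.

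**Figure D2:**
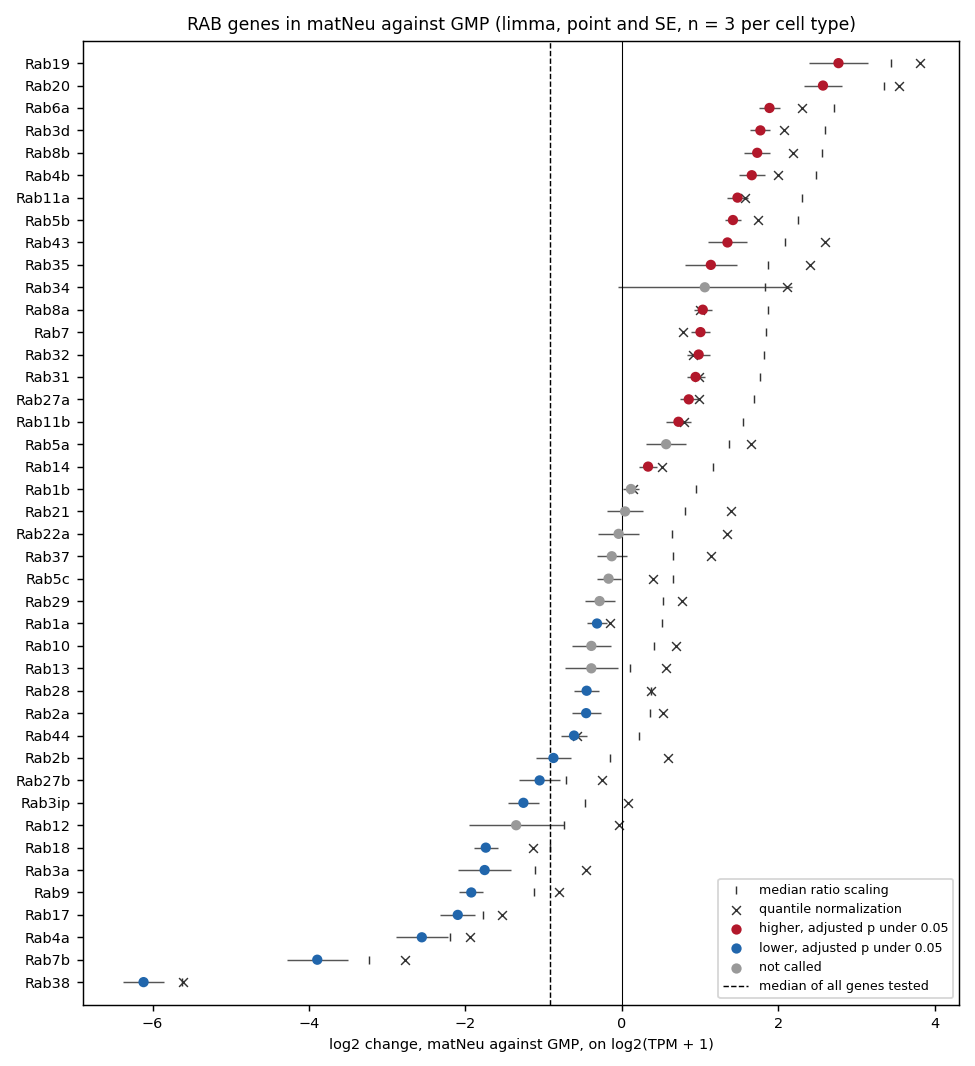
Log2 change of each tested member in matNeu against GMP on log2(TPM + 1) (limma, point and SE, 3 libraries each), coloured by call, with the change under median ratio scaling and quantile normalization and the median of all genes tested as a dashed line. The 17 members called higher lie right of 0 under all 3 scalings, while several points just left of 0, among them Rab1a, Rab2a, Rab28 and Rab44, cross it with the scaling. Both other scalings move genes as a whole to the right.

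Paralogs were compared as the log2 ratio of their (TPM + 1) values within each library, which does not depend on the scaling of the library as a whole other than through the added 1. Of 13 pairs, 7 changed their ratio by at least 1 log2 unit between some pair of cell types, 5 in preNeu against GMP, 4 in matNeu against preNeu and 6 in matNeu against GMP. With 3 libraries against 3, a two-sided exact permutation test cannot go below p = 0.1, and over the 39 tests the smallest adjusted p was 0.126, so none of these differences could pass. In the pair of Rab32 and Rab38, Rab32 made 72.8% of the TPM of the pair in GMP, 97.3% in preNeu and 99.9% in matNeu, and its log2 ratio to Rab38 went from 1.40 ± 0.23 (SD, n = 3) to 4.96 ± 0.24, a change of 3.56 ± 0.19 (SE; exact p = 0.1). Rab38 is at 0 in 2 of 3 matNeu libraries, so the ratio there (8.496 ± 0.37) is set by the added 1 and measures no exact fold. Rab7 against Rab7b moved the same way, from 3.02 ± 0.45 to 5.65 ± 0.25 and 7.92 ± 0.60, and the Rab7 share of the pair went from 88.9% to 98.3% and 99.7%. Rab7b read 0.696 to 3.60 TPM in matNeu, so the added 1 lowers the ratio there. In both pairs the ratios of the 3 cell types did not overlap, and over the whole course 1 paralog rose while the other fell.

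The ratios of the other pairs changed less or at a single step. Rab5c and Rab22a were not called at any step, so in their pairs only Rab5b and Rab31 changed by the test. Rab3a fell from 9.98% of the Rab3a and Rab3d sum in GMP to 0.737% in preNeu and 0.677% in matNeu, with log2 ratios of -3.05 ± 0.47, -6.52 ± 0.62 and -6.58 ± 0.31, so that all of its change lay between GMP and preNeu. Rab5b rose from 47.3% of the Rab5b and Rab5c sum to 58.1% and 73.3%, with log2 ratios of -0.14 ± 0.32, 0.47 ± 0.09 and 1.45 ± 0.19. For Rab27a and Rab27b the log2 ratio went from 5.79 ± 0.24 to 7.14 ± 0.18 and 7.70 ± 0.20, yet Rab27a already held 98.9% of the TPM of the pair in GMP and 99.9% at both later stages. Rab27b was at most 0.41 TPM at those later stages, so the ratios there are largely set by the added 1. The ratio of Rab22a to Rab31 fell from -4.44 ± 0.32 in preNeu to -5.82 ± 0.27 in matNeu. In the seventh pair, Rab4a went from 6.55% of the Rab4a and Rab4b sum in GMP to listed zeros, and no ratio is given for the later stages.

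**Figure D3:**
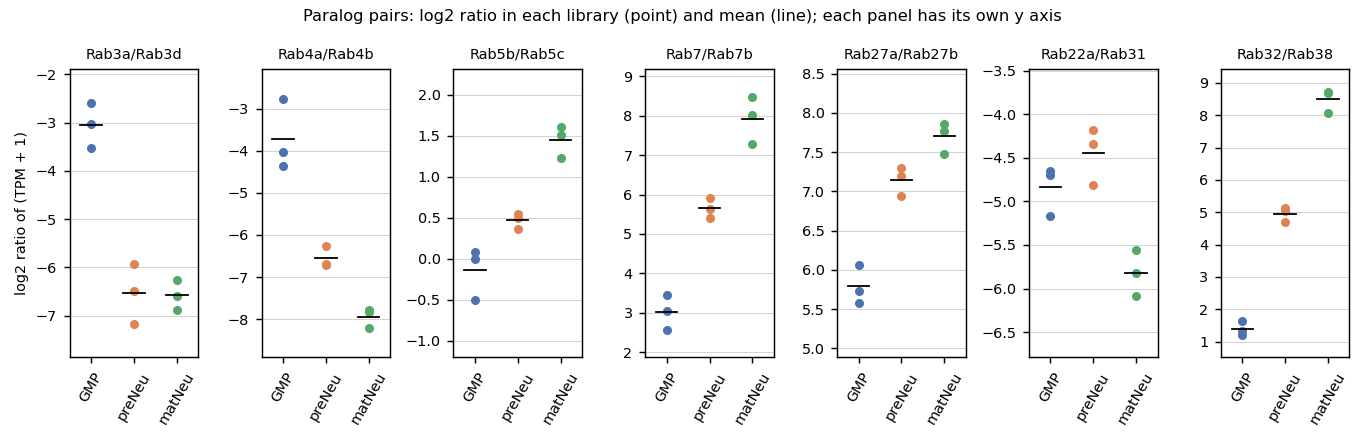
Log2 ratio of (TPM + 1) of the 7 paralog pairs that changed by at least 1 log2 unit, with a point for each library and a line for the mean of 3 libraries per cell type, each panel on its own axis. Rab32/Rab38 and Rab7/Rab7b climb at both steps, and Rab3a/Rab3d drops only into preNeu. The later points of Rab4a/Rab4b and Rab27a/Rab27b and the matNeu points of Rab32/Rab38 are largely set by the added 1. Rab4a, Rab27b and Rab38 are at or near 0 there.

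The regulators of RAB proteins were read from a list of 108 exchange factors, GTPase activating proteins, effectors, prenylation and recycling factors and the RAB kinase Lrrk2, of which 98 were tested. In matNeu against GMP 33 rose and 42 fell (33.7% and 42.9%, beside the 22.8% and 54.1% of all genes), with a median of -0.22. Exchange factors rose in 10 and fell in 12 of 29, GTPase activating proteins in 9 and 13 of 30, effectors in 10 and 14 of 30, and prenylation and recycling factors in 3 and 3 of 8. In preNeu against GMP 24 rose (24.5%, background 14.7%) and 37 fell (37.8%, background 44.3%), and in matNeu against preNeu 30 rose (30.6%, background 22.9%) and 32 fell (32.7%, background 39.8%).

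The machinery that lipidates and recycles RABs changed in opposite directions. Rabggtb, the catalytic subunit of the geranylgeranyl transferase, read 159, 123 and 118 TPM in GMP, 42.6, 34.3 and 50.4 in preNeu and 13.8, 7.16 and 8.03 in matNeu (-3.69 ± 0.24, adjusted p = 1.39e-07). Chm, an escort protein that presents RABs to that enzyme, read 12.3, 14.8 and 14.9 TPM in GMP, 8.57, 6.92 and 10.8 in preNeu and 23.3, 25.1 and 35.5 in matNeu (0.93 ± 0.23, adjusted p = 0.00348). Gdi2, a GDP dissociation inhibitor, fell from 884, 899 and 773 TPM through 652, 720 and 815 to 395, 386 and 417 (-1.09 ± 0.11, adjusted p = 4.72e-06).

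Lrrk2, a kinase that phosphorylates several RABs, rose at both steps, from 4.87, 4.56 and 3.84 TPM to 33.6, 31.7 and 47.2 and then 75.0, 118 and 83.3 (4.08 ± 0.22, adjusted p = 2.97e-08). Rab29, which can recruit Lrrk2 to membranes, rose into preNeu (0.67 ± 0.19, adjusted p = 0.0119) and fell again in matNeu (-0.95 ± 0.19, adjusted p = 0.00127). The steepest rise among the regulators was that of Rab11fip1, an effector of the Rab11 proteins, from 5.12, 7.66 and 6.16 TPM in GMP to 16.3, 24.8 and 23.3 in preNeu and 188, 178 and 235 in matNeu (4.79 ± 0.21, adjusted p = 6.59e-09). Rin2, an exchange factor for Rab5 proteins, rose by 4.09 ± 0.37 (adjusted p = 1.58e-06), from at most 8.10 TPM in GMP to at least 82.4 in matNeu. Beside Rabggtb, the deepest falls were those of the effectors Hook1 (-3.47 ± 0.34, adjusted p = 3.41e-06), listed at 0 in 2 of 3 matNeu libraries, and Ocrl, a phosphoinositide phosphatase bound by many RABs (-3.47 ± 0.28, adjusted p = 6.85e-07).

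The effectors of Rab27a differed among themselves. Unc13d, which primes granules for fusion, read 66.5, 73.8 and 68.2 TPM in GMP, 111, 141 and 134 in preNeu and 161, 170 and 139 in matNeu (1.16 ± 0.13 against GMP, adjusted p = 1.27e-05) and was called higher already in preNeu (0.88, adjusted p = 0.000251), a step at which Rab27a was not (0.27, adjusted p = 0.0741). Sytl1 peaked in preNeu, with 8.03, 7.5 and 13.3 TPM in GMP, 32.6, 35.8 and 33.1 in preNeu and 13.1, 16.2 and 7.99 in matNeu, and its matNeu level was not called against GMP (0.33, adjusted p = 0.302). Sytl4 fell from 4.61, 3.06 and 2.37 TPM in GMP to at most 0.682 in all later libraries (-1.77 ± 0.30 in matNeu, adjusted p = 0.000236).

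CHD4 occupancy in WT GMPs was read from peak summits between 2 kb upstream and 500 bp downstream of the 5′ end of each gene (mouse build GRCm38, mm10). With 1 library per genotype there is no replicate check and no test. A summit was found in the promoters of 8 of 55 members (14.5%) and in 7 of 42 tested members (16.7%), where 12.2% of the tested protein-coding genes had one. The 8 were Rab7b, Rab15, Rab19, Rab21, Rab29, Rab32, Rab38 and Rab43, with 13 summits in all. Rab38 had the strongest, with fold enrichments of 19.1 at -1167 bp and 17.99 at 49 bp from its start (negative distances lie upstream). Rab19 had 3 summits with folds of 8.82 to 10.95, Rab7b had 1 of 9.998 at -22 bp, and Rab32 had 1 of 5.24 at 51 bp. Thus Rab38 and Rab32, which changed in opposite directions, both had CHD4 at the start, and so did Rab7b, which falls, and Rab19, which rises into matNeu.

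The bases under these summits are shown because Rab38 had the highest promoter folds and the largest change of any member. They are read on the plus strand of GRCm38, and the capital marks the summit base of each Rab38 peak, at chr7:88429092-88429120 and chr7:88430308-88430336.
Rab38, upstream summit: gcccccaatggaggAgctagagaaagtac
Rab38, summit at the start: cgcccacatagagcTccggtctccgtcgg
Within 100 bp of the summits, 3 short words were sought on both strands: the ETS word GAGGAA, the GFI1 core AAATCA, and the RUNX word TGTGGT. The ETS word was near 6 of 13 member summits (46.2%), against 39.6% of 2173 summits in all protein-coding promoters. It lay near summits of Rab7b (chr1:131688706-131688734), Rab19 (chr6:39379478-39379506), Rab21 (chr10:115315998-115316026), Rab32 (chr10:10558234-10558262) and at both Rab29 summits (chr1:131866491-131866519 and chr1:131867458-131867486), in capitals here in whichever of its forms the plus strand holds.
Rab7b: cagaaagagagGAGGAAaactcagaggga
Rab19: gcggttcagccTTCCTCttgtggatttaa
Rab21: ctcttactcacTTCCTCaccgagatattt
Rab29, upstream: gaagtgtcaatGAGGAActatctcttgtt
Rab29, downstream: ggccgcgcgggGAGGAAgcgcgcacaggc
Rab32: ggtcccggcacTTCCTCttccctggctac
The GFI1 core and the RUNX word were near none of the 13 member summits, and near 9.43% and 16.5% of all promoter summits. A match or its absence describes these letters in this window only.

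In Gfi1-/- GMPs a peak overlapped 1 of the 13 promoter peaks of members (7.69%), the upstream peak of Rab38, where the fold was 7.77. Of all 2285 promoter peaks 16.4% were overlapped, where a peak in promoters of several genes counts once for each gene. Of all 35790 WT peaks 18.5% were overlapped. The Gfi1-/- list holds 7316 peaks in all, and its smaller size and the loss of Gfi1 cannot be told apart at single genes. Taking the gene and its 2 kb upstream, 18 of 42 tested members (42.9%) held a WT peak, beside 34.2% of tested protein-coding genes, and over all 55 members 24 held 100 such peaks, of which 14 (14%) had an overlapping Gfi1-/- peak.

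Rab8b stood out by number. Its 76.0 kb gene held 20 CHD4 peaks, none in the promoter, with folds up to 46.4, and 0.968% of tested genes held as many. A Gfi1-/- peak overlapped 7 of the 20. Rab3ip held 9 peaks with a best fold of 29.7, Rab3c, not tested for its low level, 9 with a best fold of 17.1, Rab7b and Rab27a held 6 each, and Rab2a and Rab43 held 5 each. Within Rab38 a further peak with a fold of 25.6 lay in the gene body and was overlapped by a Gfi1-/- peak. Rab8b was singled out after its values were seen, and longer genes have more room for peaks.

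**Figure D4:**
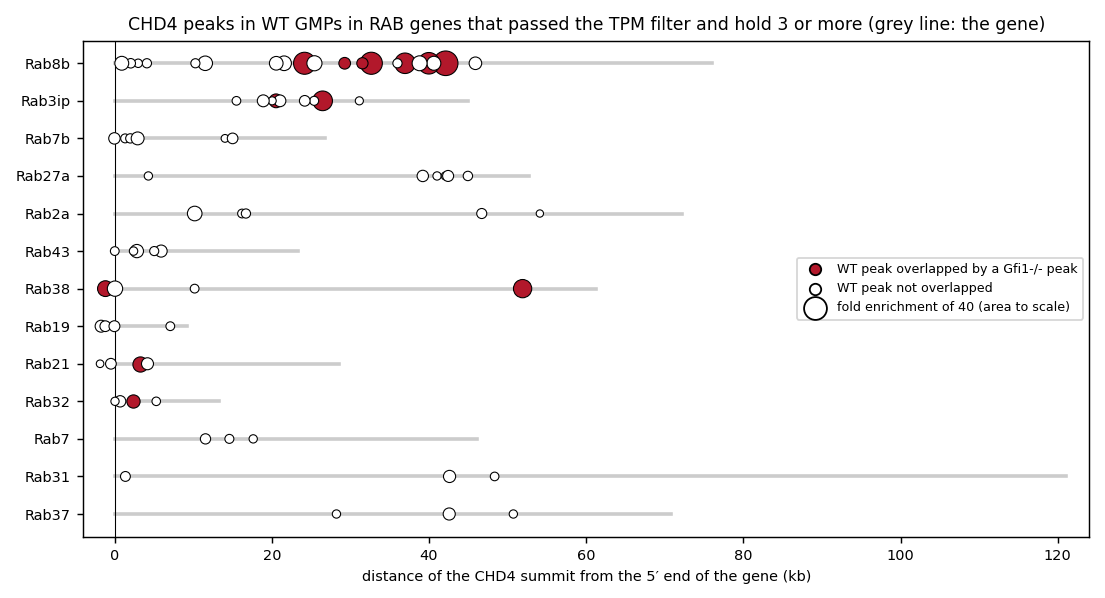
CHD4 peaks of WT GMPs in the tested members that hold 3 or more, placed by the distance of the summit from the 5′ end in kb (grey line, the gene), with circle area as fold enrichment and red for peaks overlapped by a Gfi1-/- peak. Rab8b carries 20 peaks, 7 of them red, and Rab38 has peaks at its start and far within the gene.

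H3K4me2 peaks of the lists as deposited marked nearly all tested members at every stage, but fewer of them in GMP under a stricter cutoff. A peak overlapped the promoter of 48 of 55 members in each of GMP, preNeu and matNeu (87.3%). Among the 42 tested members it was 38 in GMP (90.5%, against 86.7% of tested protein-coding genes), 39 in preNeu (92.9%, against 89.3%) and 39 in matNeu (92.9%, against 88.1%). Rab17, Rab9b and Rab39b had no promoter peak at any stage, also when any annotated transcript start was allowed. Rab18 had none at its outermost annotated start but had one at each stage at a start 31.2 kb downstream. At a -log10 q of at least 5 the tested members with a promoter peak numbered 18 in GMP (42.9%, against 36.5% of tested protein-coding genes), 38 in preNeu (90.5%, against 86.5%) and 37 in matNeu (88.1%, against 84.9%), so the lower count in GMP was shared by the tested genes as a whole. The width of the promoter peak was compared as well, with 1 library per stage and no test. Where a promoter held more than 1 peak, the width is that of the peak with the highest fold.

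The 3 lists differ as a whole, with 37643, 49578 and 44094 peaks and a median promoter peak width over tested genes of 2206, 3327 and 2600 bp in GMP, preNeu and matNeu. Over all members with a peak, tested or not, the median was 1932, 3714 and 3483 bp. Over all protein-coding promoters with a peak it was 1967, 2974 and 2363 bp. The members were thus close to all promoters in GMP and wider in preNeu and matNeu. All 17 members that rose in matNeu against GMP had a wider peak in matNeu, with a median width ratio of 2.93, and in 13 of them the peak was at least 2 times as wide. Of all 2109 protein-coding genes called higher with a peak in both lists, 90.1% were wider, with a median ratio of 1.78. Of the 10 members that fell and had both peaks, 6 were wider (median ratio 1.25), beside 52.3% of the 6107 genes called lower (1.02). From GMP to preNeu all 11 members called higher with a peak in both lists were wider (2.82, against 2.16 for all such genes). From preNeu to matNeu 9 of 15 called higher were wider (1.02, against 0.98), and 2 of 9 called lower (0.79, against 0.75).

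In bp, the 4 largest gains of width from GMP to matNeu were those of Rab27a, Rab3d, Rab8b and Rab19, while as a ratio Rab1a led, whose peak went from 412 to 7266 bp although its transcript was called lower. Rab6a followed Rab19 in ratio, from 488 to 6027 bp. With any annotated start allowed, the GMP peaks of Rab1a and Rab6a were 2242 and 1866 bp wide, so both ratios depend on the start taken. The promoter peak of Rab3d was 1933 bp in GMP, 5557 bp in preNeu and 14205 bp in matNeu, and so covered nearly all of its 10.7 kb gene at the end. That of Rab8b went from 2972 to 8811 and 14723 bp, and that of Rab19 from 858 to 6075 and 10929 bp. Rab19 had 2 GMP peaks, which together covered 60.9% of its promoter window. Its 858 bp are those of the peak with the higher fold alone, so its ratio depends on the peak taken. The Rab27a peak, of 5225, 17954 and 18232 bp, had nearly its full width in preNeu. At that step its transcript was not called (0.27, limma adjusted p = 0.0741), although all preNeu libraries were above all GMP libraries. Peaks of the falling members did not all shrink. Rab7b went from 2404 to 3095 and then 646 bp, and Rab4a from 1100 and 1064 to 611 bp, while Rab38 kept peaks of 1929, 2345 and 1770 bp as its transcript fell to the floor. Rab28, with its transcript peak in preNeu, had 2001, 4865 and 3850 bp.

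**Figure D5:**
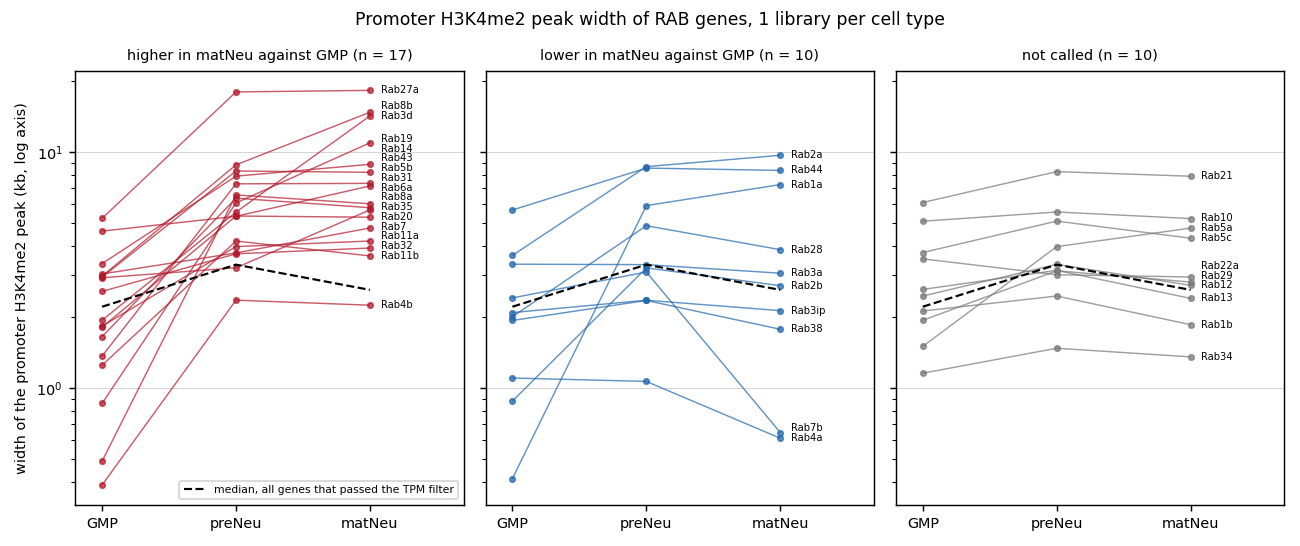
Width of the promoter H3K4me2 peak in kb on a log axis for tested members with a peak at all 3 stages, in panels by their transcript call in matNeu against GMP, with the median of all tested genes as a dashed line (1 library per stage). All 17 members that rose end wider than they began, Rab7b and Rab4a end narrower, and Rab38 changes little.

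Some loci are uncertain because genes overlap. Rab37 shares 17779 bp with Cd300lf on the other strand, whose mean rose from 1.26 TPM in GMP to 172 in preNeu and 1168 in matNeu. The library kit keeps strand, but whether strand was used to assign reads is not given in the sources used here. Rab43 lies in a same-strand gene, Gm45140, listed at means of 2.24 to 3.84 TPM, and Rab4b in Gm21983, listed at 0.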

How the data were processed

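RNA was sequenced after polyA selection with a stranded kit. The authors deposited a table of TPM per gene and library. The protocol text names TopHat, HTSeq and DESeq, the submitters' processing notes name kallisto 0.44.0, BWA 0.7.17, Trimmomatic 0.36 and MACS2 2.1.0 with mm10, and how TPM was computed is not given in the sources used here. For ChIP-seq the authors deposited MACS peaks called per sample, each with a fold enrichment (a linear ratio) and a -log10 q-value. Members and gene lists were chosen with earlier results of these data known.

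TPM was tested as log2(TPM + 1), a scale that understates changes of low genes, with limma 3.58.1 (trended variance, R 4.3.3) in a single fit to the 9 libraries by cell type and no covariate, for the 13061 genes at 1 TPM or more in at least 3 libraries, with Benjamini-Hochberg adjustment over all of them and calls at 0.05. The fit was checked on simulated data. Paralog ratios were compared with exact permutation tests (scipy 1.17.1), adjusted over 39 tests. The promoter was taken as the 2 kb before and 500 bp after the 5′ end of each gene in GENCODE annotation of GRCm38. CHD4 needed a summit there and H3K4me2 an overlap of 1 bp. Peak counts carry no replicate error. TPM keeps no depth, so no counting interval is given. No pair of libraries held identical values. Per-library values were written for the 12 called members with the largest change, the 5 with the highest mean, and both genes of each paralog pair that changed by 1 log2 unit. Alternatives were a filter of 5 TPM or none, a pseudocount of 0.1, median ratio scaling, quantile normalization, a replicate block, leaving out each library, other promoter windows and stricter peaks. H3K4me3 and GFI1 lists carry chromosome names that do not match the mouse build, and the 2 ATAC-seq lists hold identical peaks, so these were not used here. A few values of single genes are not reported here.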

Additional observations from a re-analysis of the deposited data

How the results depend on the processing

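Rescaling moved the calls most. Median ratio scaling gave 22 RAB genes higher in preNeu against GMP, and 9 lower in matNeu against GMP. Quantile normalization gave 24 higher and 7 lower in preNeu against GMP, and 27 higher and 7 lower in matNeu against GMP. Regulators lower in matNeu against GMP numbered 25 with median ratio scaling. Over all genes, the split for matNeu against GMP went from 2976 higher and 7065 lower to 4406 and 5553 with median ratio scaling and 4991 and 4958 with quantile normalization. For preNeu against GMP it went from 1925 and 5781 to 2811 and 4003 and to 3299 and 3559, and for matNeu against preNeu from 2995 and 5202 to 4021 and 4347 and to 4110 and 4058.

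In 24 of 2130 member values a change that was called, as reported or under the alternative, turned its sign, always under rescaling. In matNeu against GMP, median ratio scaling gave Rab1a 0.51, Rab2a 0.35, Rab5c 0.65, Rab22a 0.64, Rab28 0.37, Rab29 0.52, Rab37 0.66 and Rab44 0.22. Quantile normalization gave Rab2a 0.53, Rab2b 0.59, Rab3ip 0.075, Rab5c 0.40, Rab10 0.70, Rab22a 1.34, Rab28 0.38, Rab29 0.76 and Rab37 1.13. In preNeu against GMP, median ratio scaling gave Rab1a 0.0298, Rab11b 0.39, Rab14 0.39 and Rab44 0.0011, and quantile normalization gave Rab14 0.34. In matNeu against preNeu, Rab1b went to 0.33 with median ratio scaling and Rab2b to 0.74 with quantile normalization. The cause was not tested.

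Leaving out single libraries gave 16 to 18 RAB genes higher and 12 to 14 lower in matNeu against GMP, 14 to 15 and 8 to 11 in matNeu against preNeu, and 10 to 13 and 11 to 14 in preNeu against GMP. Paralog pairs numbered 6 to 8, 4 to 5 and 5 to 6, and regulators 32 to 33 and 38 to 43, 28 to 31 and 28 to 32, and 20 to 25 and 33 to 38. A pseudocount of 0.1, another filter, no variance trend or a fit of the compared cell types alone gave 16 to 17 RAB genes higher and 11 to 15 lower in matNeu against GMP. With a filter of 5 TPM, 3 of 11 pairs changed in preNeu against GMP. At a -log10 q of at least 5, 24 of 55 RAB promoters kept an H3K4me2 peak in GMP, 47 in preNeu and 45 in matNeu (43.6%, 85.5% and 81.8%, beside 25.5%, 54.4% and 52.1% of all protein-coding promoters). Allowing any transcript start, an alternative chosen after seeing the data for H3K4me2, gave 51, 51 and 50.

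Same-numbered libraries showed little shared deviation (9 correlations of -0.039 to 0.123), and the main fit took no pairing from the numbers. Weak correlations cannot show whether such libraries came from the same animals or were handled together. With a replicate block 17 RAB genes were higher and 12 lower in matNeu against GMP, 15 and 10 in matNeu against preNeu, and 12 and 14 in preNeu against GMP.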

Other observations

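Another 5 RAB genes carry a transcript type other than protein coding in the expression table and were outside the rule. Rab24, of autophagosomes, read 17.1, 33.1 and 60.9 TPM in GMP, 232, 296 and 184 in preNeu and 60.8, 185 and 242 in matNeu, with preNeu above GMP in every library. Rab23 read 10.8, 6.66 and 1.86 TPM in GMP, 4.99, 2.29 and 4.25 in preNeu and 29.9, 41.4 and 33.2 in matNeu, where every library was above the rest. Rab33b read 12.7, 18.3 and 7.87 TPM, then 16.2, 15.7 and 18.7, then 29.5, 32.1 and 37.1. Rab40c stayed between 3.70 and 13.6 TPM over all libraries. Rab36 read 2.82, 0.466 and 1.25 TPM in GMP and is listed at 0 in all later libraries. These were not tested, and how their type was assigned is not given in the sources used here.

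The pseudogene Rab11b-ps2 read 52.0, 78.9 and 69.7 TPM in GMP, 83.6, 103 and 93.7 in preNeu and 115, 90.5 and 53.0 in matNeu.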
